A study of Mus musculus with 36 samples.

Results

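RNA that fetal mouse neural stem cells (NSCs) released in extracellular vesicles (EVs) was compared with the RNA of the same cells, in cultures that received no ethanol. The members were the 6 EV libraries and the 6 cell libraries labelled as controls at 0 mg/dL ethanol, 12 of 36 libraries in the series, and an EV library was paired with the cell library of its own culture by pregnancy set and sex. The cultures were neurospheres grown from the dorsal telencephalon of fetuses at gestational day 12.5. The fetuses were labelled as wild-type C57BL/6J, of a stock that the study's methods name C57BL/6J (Ai14). There was 1 female and 1 male culture from each of pregnancy sets 3, 4 and 5 (cultures 3F, 3M, 4F, 4M, 5F and 5M below). Cultures at passages 7 to 10 were used, and EVs and cells were collected on day 5. Fetal tissue was pooled by sex within a pregnancy, EVs and cells came from the medium and the pellet of the same flasks, and all 12 libraries shared strain, region, medium, culture day and the absence of ethanol. The other 24 libraries came from these cultures at 120 and 320 mg/dL ethanol and took no part in the main comparison: 6 of them, cells at 120 mg/dL, gave a measure of gene level described below, and all 36 libraries entered 1 alternative fit.

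EVs are small membrane-bound particles that cells shed from the plasma membrane or release from multivesicular endosomes, and their cargo includes fragments and whole molecules of coding and noncoding RNA. In the developing cortex, NSCs divide in the wall of the ventricle, and vesicles they release can be taken up by neighboring cells. Cells hold RNA in compartments, with mitochondrial transcripts inside mitochondria, snRNAs, 7SK and Malat1 mostly in the nucleus, and tRNAs, Y RNAs and most mRNAs in the cytoplasm, so that an EV-to-cell comparison by RNA class and pathway describes which compartments and functions the vesicle RNA resembles. It measures the composition of RNA in a preparation and not the number of vesicles, and in these bulk libraries fewer particles or cells carrying an RNA and less RNA in each cannot be told apart.

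EV libraries were shallower than cell libraries, with 1.12 M to 5.47 M counts (median 3.50 M) against 32.6 M to 45.4 M (median 40.3 M), so that 1 count was worth 0.221 to 0.998 CPM in EVs and 0.0189 to 0.0319 CPM in cells, where CPM are counts relative to the library total after scaling by the trimmed mean of M values (TMM). The 20 most counted genes took 41.8% to 68.6% of the counts of an EV library, the most in culture 5F, and 38.1% to 48.2% of those of a cell library. Cell RNA was intact by the study's methods, whereas an integrity number could not be calculated for EV RNA, and the part of RNA integrity, depth and the separate extraction kits in the differences below was not tested. The 4 Y-linked genes matched the sex labels, with summed levels of 177 to 276 CPM in male cells and 33.8 to 36.5 CPM in male EVs against 0.606 to 1.25 CPM in female cells and 0.998 to 3.94 CPM in female EVs. The cell libraries carried the defining NSC genes, among them Fabp7, a radial glial fatty acid binding protein, at 626 to 1034 CPM and Nes, the intermediate filament nestin, at 185 to 517 CPM, while 8 microglia genes together reached 0.709 to 1.20 CPM. Genes nested in other genes often had no counts. Of protein-coding genes that lie inside an intron of a gene on the other strand, 56.0% had 0 counts in all 12 libraries, against 7.2% of those that overlap no other gene. Sox2 inside Sox2ot, Kcnq1ot1 inside Kcnq1 and P2ry12 inside Med12l were among the genes at 0, so 0 counts of a nested gene were not read as absence. Also at 0 were Aqp4, which overlaps no other gene, and Xist, which overlaps Tsix and Jpx but lies inside neither. The cause of these 0 counts was not tested.

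Of 20571 genes tested by edgeR's quasi-likelihood test with the culture as a block, 13503 (65.6%) differed between EVs and cells at an adjusted p (Benjamini-Hochberg) under 0.05. Of all tested genes, 31.7% were called higher in EVs (6530 genes) and 33.9% lower (6973 genes), and 9405 calls (69.7%) went one way in 6 of 6 cultures. Calls beyond 2-fold numbered 4288 higher in EVs (20.8%) and 3842 lower (18.7%), together 8130, and without pregnancy set 5 they numbered 5383. The split between higher and lower depended on the scaling. With TMM 48.4% of calls were higher in EVs and the median gene stood at a log2 fold change of 0.00674, with median-of-ratios factors in edgeR these were 59.4% and 0.41, and with library totals 40.5% and -0.25. DESeq2, in which the test and the 24795 genes tested differed as well as the scaling, gave 62.8% and 0.83. For this reason gene lists are given below as their median log2 fold change minus that of all tested genes. This difference kept its sign for all 55 lists with tested genes under median-of-ratios factors and under library totals. A scaling factor moves all genes of a library alike, so this was largely fixed in advance. Of genes called higher in EVs, 4162 had a median of fewer than 10 counts in EV libraries. The value ± after a log2 fold change is its standard error, over 6 EV and 6 cell libraries.

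**Figure D1:**
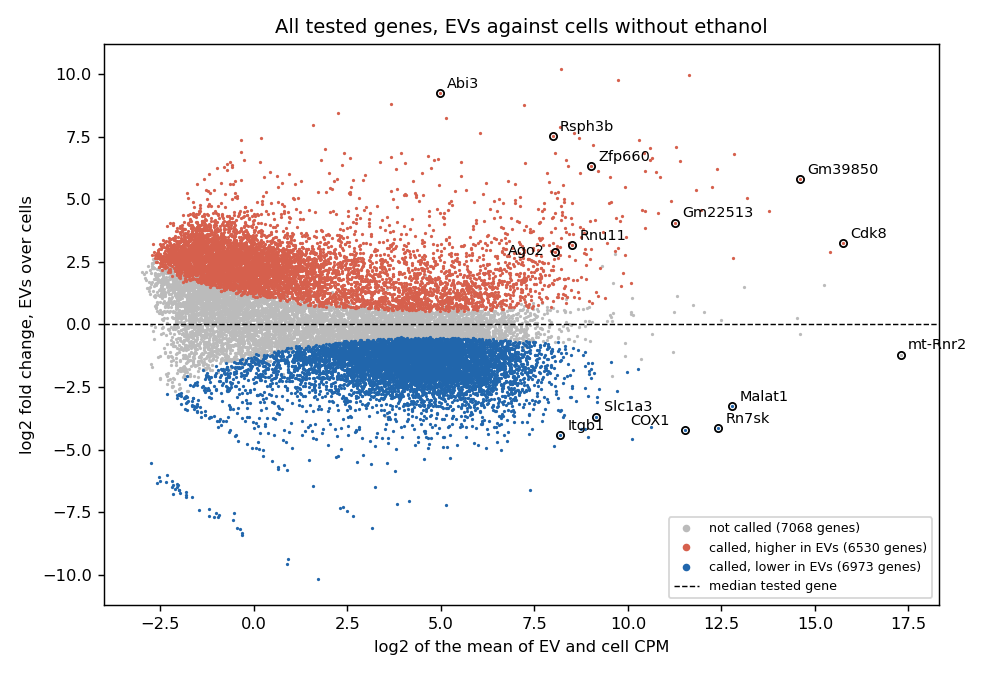
Log2 fold change of EVs over cells (y axis) against the log2 of the mean of EV and cell CPM (x axis) for 20571 tested genes, each a point, colored by the edgeR call, with 14 named genes circled. The genes called higher in EVs include many of low level on the left, and the genes called lower lie mostly at middle and high levels. The points apart at the lower left, along a slanted line, are genes with 0 counts in all EV libraries, whose fitted fold change depends on the prior count.

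RNA classes were compared as shares of a library's counts, within each culture. Of 13 classes that could be tested, 9 took a smaller share of the EV counts in 6 of 6 cultures, and each of these had an exact sign-flip p of 0.03125 (two-sided, the smallest that 6 cultures can give) and an adjusted p of 0.0451. With the 20 most counted genes, the mitochondrial ribosomal RNAs among them, left out of the shares, no class passed. 6 of these 9 classes kept mean log2 ratios of -3.83 to -1.07 at an adjusted p of 0.0625, the smallest possible where only 6 of 12 classes reach the smallest exact p. The class of 7SK, 7SL, Y, vault, RNase P and MRP RNAs fell to -0.81 (adjusted p = 0.25, sign-flip test). Nuclear long noncoding RNAs fell to -0.27 (adjusted p = 0.443). With all genes in the shares, the largest losses were in mitochondrial mRNAs, mitochondrial tRNAs and nuclear long noncoding RNAs. No class took a larger share in 6 of 6 cultures: spliceosomal snRNAs and miRNA precursors did so in 5 of 6 and 5S ribosomal RNA in 4 of 6. H/ACA box snoRNA genes had no counts in any of the 12 libraries, and of snoRNA genes that lie in an intron on the same strand 98.4% had 0 counts in all 12.

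**Figure D2:**
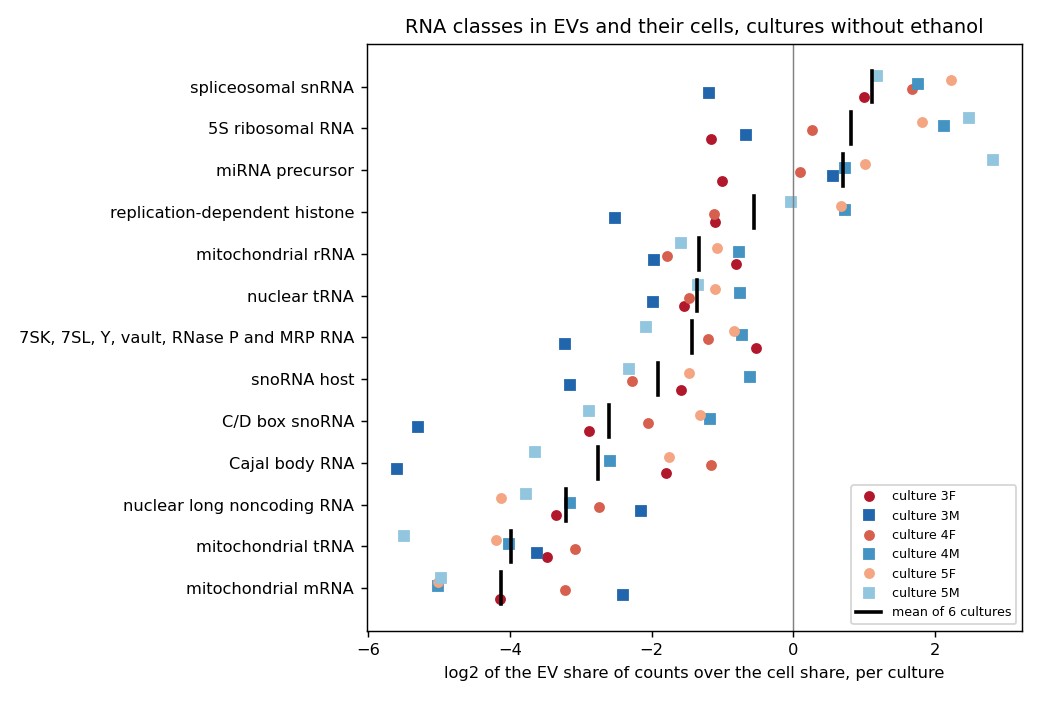
Log2 of the EV share of counts over the cell share (x axis) for 13 RNA classes, with 1 point per culture (circles female, squares male) and a black bar for the mean of 6 cultures. All points of the 9 lowest classes lie left of 0, and culture 3M lies left of the other cultures for snRNAs, C/D box snoRNAs and Cajal body RNAs.

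Mitochondrial RNAs comprise the ribosomal RNAs, tRNAs and 13 mRNAs that the mitochondrial genome encodes. Mitochondrial mRNAs took 0.0399% to 0.232% of EV counts and 1.23% to 1.58% of cell counts, a mean log2 ratio of -4.13 ± 1.10 (SD, n = 6). Mitochondrial tRNAs took 0.00203% to 0.0103% of EV counts against 0.0586% to 0.126% of cell counts, a mean log2 ratio of -3.98 ± 0.84 (SD, n = 6). The 2 mitochondrial ribosomal RNAs were reduced far less, with 7.27% to 16.3% of EV counts against 19.8% to 31.8% of cell counts and a mean log2 ratio of -1.33 ± 0.52 (SD, n = 6). The libraries were depleted of ribosomal RNA, and the part of this step in the shares of these 2 RNAs was not tested. The log2 ratios of the mRNAs and of the tRNAs were lower than that of the ribosomal RNAs in every culture, while the order of mRNAs and tRNAs differed among cultures.

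All 8 tested mitochondrial mRNAs and all 14 tested mitochondrial tRNAs were called lower in EVs, against 33.9% of all genes. COX1, the catalytic subunit of cytochrome c oxidase and the most abundant of the mRNAs, lay at 143, 278 and 1158 CPM (lowest, median, highest) in EVs and at 4133, 5417 and 7252 CPM in cells. ND1, a membrane subunit of complex I, lay at 41.6, 81.2 and 346 CPM in EVs and at 1479, 1970 and 2732 CPM in cells. Neither gene's EV and cell libraries overlapped, and in both the highest EV library was that of culture 3M. COX1 differed by -4.22 ± 0.58 (adjusted p = 4.87e-06, edgeR) and ND1 by -4.57 ± 0.50 (adjusted p = 3.16e-07) on the log2 scale. The 16S ribosomal RNA mt-Rnr2, the most counted gene of these libraries, lay at 45360 to 149500 CPM in EVs and at 148000 to 274900 CPM in cells, and at the level of this single gene edgeR did not call it, with a log2 fold change of -1.21 ± 0.98 (adjusted p = 0.284). With DESeq2 mt-Rnr2 passed at -0.80 (adjusted p = 0.00362).

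Of the mitochondrial tRNAs, the most abundant was the proline tRNA TrnP, which is read from the light strand, and the one with the largest fall was the isoleucine tRNA TrnI, which is read from the heavy strand. Both are printed from the GRCm39 mitochondrial genome with the anticodon in capitals, TrnP from chrM:15356-15422 on the minus strand and TrnI from chrM:3706-3774 on the plus strand.
TrnP: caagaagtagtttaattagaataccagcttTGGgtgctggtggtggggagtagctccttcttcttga
TrnI: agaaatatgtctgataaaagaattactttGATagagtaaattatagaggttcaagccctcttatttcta
TrnP lay at 3.54, 20.6 and 32.1 CPM in EVs and at 77.0, 134 and 170 CPM in cells, and differed by -2.88 ± 0.38 (adjusted p = 2.94e-06). TrnI lay at 0, 2.07 and 12.1 CPM in EVs and at 38.5, 59.7 and 108 CPM in cells, and differed by -4.89 ± 0.49 (adjusted p = 1.17e-07). Neither overlapped between EVs and cells.

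Nuclear tRNAs, the adaptors of cytoplasmic translation, took 0.0718% to 0.125% of EV counts and 0.208% to 0.408% of cell counts (mean log2 ratio -1.37 ± 0.42, SD, n = 6). Of 400 nuclear tRNA genes in the files 245 had a count and 189 were tested, and 159 of these (84.1%) were lower in EVs and 1 higher. The median of the tested genes was -2.55 relative to the median gene, and -2.34 with the 12 genes that had no EV count set to the fold that 3 counts per library would allow. The most abundant, n-TAtgc10 (alanine, anticodon TGC), lay at 44.9, 97.0 and 121 CPM in EVs and at 251, 266 and 425 CPM in cells, and differed by -1.89 ± 0.31 (adjusted p = 3.71e-05) with no overlap. Among all genes with at least 10 counts in every cell library, 4 of the 5 largest falls were nuclear tRNAs: n-TCgca57 (cysteine), n-TTtgt2 (threonine), n-TNgtt8 (asparagine) and n-TSaga4 (serine) had 0 counts in all 6 EV libraries and medians of 5.59, 3.50, 3.23 and 1.62 CPM in cells. Against a floor of 3 counts per EV library (mean 1.38 CPM) they were at least 4.78-, 2.71-, 2.71- and 1.16-fold lower in EVs. Copies of a tRNA gene can be near identical, and how the counting shared reads among them makes single loci uncertain.

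The spliceosomal snRNAs, which form the cores of the splicing particles, were the class with the highest EV share relative to cells. The 10 listed genes took 0.00897% to 0.117% of EV counts and 0.0205% to 0.0335% of cell counts, with a mean log2 ratio of 1.11 ± 1.21 (SD, n = 6), higher in 5 of 6 cultures and below 0 in culture 3M, and the exact test did not pass the threshold (p = 0.125, adjusted p = 0.163). Of 5 members tested 2 were higher and 2 lower, and Rnu11 alone held most of the EV counts of the class, with a median of 685 CPM. Over all 992 genes that RefSeq names snRNAs, 7SK left out, the shares were 0.0665% to 1.28% in EVs and 0.102% to 0.189% in cells, again higher in 5 of 6 cultures, and in culture 3M the EV share of 0.0665% lay below the cell share of 0.189%. Of the 89 snRNA genes tested, 57 (64.0%) were higher in EVs and 6 lower, against 31.7% and 33.9% of all genes. A gene low in cells could pass the count filter through the EV libraries alone, so this count is a description and not a property of snRNAs.

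3 snRNA sequences are printed, from GRCm39 with the annotated strand, since these loci moved in opposite directions. Rnu11 (chr4:131997391-131997524, minus strand) and Rnu12 (chr15:83033845-83033995, plus strand) encode U11 and U12, which act as a pair in the minor spliceosome, and the capitals mark a run of the form AATTTTTG with 4 to 6 T in its middle, such as binds the Sm protein ring. Searched on the transcribed strand, this form occurs in 52 of 1381 annotated snRNA transcripts (3.8%). Gm22513 (chr12:54743567-54743730, plus strand), chosen after its values were seen, is an annotated snRNA whose capitals mark ACTTACCTG from position 3, the letters by which U1 pairs with a 5′ splice site, and 53 of the 1381 transcripts (3.8%) hold them.
Rnu11: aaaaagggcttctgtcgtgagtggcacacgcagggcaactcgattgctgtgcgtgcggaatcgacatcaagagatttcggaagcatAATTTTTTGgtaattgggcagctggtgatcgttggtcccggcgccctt
Rnu12: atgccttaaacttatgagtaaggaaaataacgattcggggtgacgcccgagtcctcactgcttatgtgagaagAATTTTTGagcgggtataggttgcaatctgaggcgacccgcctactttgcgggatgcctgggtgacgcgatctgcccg
Gm22513: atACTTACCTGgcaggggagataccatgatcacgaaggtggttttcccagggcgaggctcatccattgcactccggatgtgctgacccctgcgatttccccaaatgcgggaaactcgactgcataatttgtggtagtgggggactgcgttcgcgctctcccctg

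Rnu11 lay at 89.3, 685 and 1287 CPM in EVs and at 48.3, 56.7 and 90.8 CPM in cells, so that only the lowest EV library reached into the range of the cells. In 6 of 6 cultures its EV level exceeded its cell level, by 3.15 ± 0.44 on the log2 scale (adjusted p = 5.37e-06). Rnu12 went the other way, with 8.51, 75.1 and 335 CPM in EVs and 120, 166 and 254 CPM in cells, lower in 5 of 6 cultures by -1.46 ± 0.45 (adjusted p = 0.00886), but without culture 4F the adjusted p was 0.0727 and without the culture block 0.376. Gm22513 lay at 420, 3301 and 12840 CPM in EVs and at 126, 202 and 276 CPM in cells, without overlap, a log2 fold change of 4.06 ± 0.71 (adjusted p = 6.18e-05). The EV libraries spread widely at all 3 loci, over more than the cell libraries did, and U1 copies are near identical, so how reads were placed among them is uncertain.

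The small structural RNAs of the cytoplasm and nucleus (7SK, 7SL, Y, vault, RNase P and MRP RNAs) took 0.294% to 1.11% of EV counts and 1.18% to 2.74% of cell counts, a mean log2 ratio of -1.43 ± 1.03 (SD, n = 6). Most of this loss lay in Rn7sk, the 7SK RNA that holds the elongation factor P-TEFb inactive in the nucleus. It lay at 331, 501 and 1105 CPM in EVs and at 5015, 10631 and 14110 CPM in cells, with no overlap and a log2 fold change of -4.15 ± 0.61 (adjusted p = 9.63e-06). Of the Y RNAs, which bind Ro60 in the cytoplasm, Rny1 was not called and Rny3 was lower. Rny1 lay at 230, 405 and 551 CPM in EVs and at 178, 269 and 355 CPM in cells (0.49 ± 0.31, adjusted p = 0.163), and with DESeq2 or without the culture block its adjusted p was 0.000549 and 0.0275. Rny3 lay at 112, 325 and 578 CPM in EVs and at 474, 586 and 731 CPM in cells (-1.08 ± 0.38, adjusted p = 0.0164), and without culture 3F or 4F its adjusted p was 0.0726 and 0.0928. The catalytic RNAs of RNase P (Rpph1, 0.50 ± 0.53, adjusted p = 0.409) and RNase MRP (Rmrp, -1.12 ± 0.57, adjusted p = 0.0889), which process tRNA and ribosomal RNA precursors, did not pass the test, though with DESeq2 Rpph1 passed at 0.93 (adjusted p = 0.0214) and with library totals Rmrp passed at -1.37 (adjusted p = 0.0214).

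Of C/D box snoRNA genes 4 were tested, with 2 lower in EVs and 2 not called, and of the 9 Cajal body RNA genes only Scarna2 had counts. C/D box snoRNAs, guides of ribosomal RNA methylation, took 0.00402% to 0.0633% of EV counts and 0.142% to 0.192% of cell counts. Most of these counts were on Snord3a, the U3 RNA of early ribosomal RNA processing, at 39.9, 203 and 616 CPM in EVs and at 1212, 1253 and 1848 CPM in cells (-2.66 ± 0.49, adjusted p = 0.000112, no overlap). Scarna2, a guide RNA of Cajal bodies, lay at 0.982, 6.87 and 13.0 CPM in EVs and at 21.2, 32.3 and 42.8 CPM in cells (-2.36 ± 0.38, adjusted p = 2.77e-05, no overlap). The host genes whose introns carry snoRNAs showed 0 higher and 13 lower (68.4%) of 19 tested, against 31.7% and 33.9% of all genes. Gas5, the most abundant host, lay at 48.9, 55.6 and 96.9 CPM in EVs against 222, 262 and 358 CPM in cells, and Snhg9, the host with the largest fall, at 0, 0.111 and 0.655 CPM against 2.69, 5.33 and 11.1 CPM.

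Nuclear long noncoding RNAs as a class took 0.108% to 0.177% of EV counts and 0.780% to 1.88% of cell counts, and this rested on Malat1, a transcript of nuclear speckles. Malat1 lay at 1085, 1275 and 1621 CPM in EVs and at 6535, 13430 and 16930 CPM in cells (-3.27 ± 0.55, adjusted p = 4.72e-05, no overlap). Neat1, the scaffold of paraspeckles, was also lower in EVs, with 6.49, 14.95 and 35.3 CPM against 43.8, 53.4 and 154 CPM (-2.11 ± 0.32, adjusted p = 1.38e-05). Airn, the long imprinted transcript that silences Igf2r in cis, was higher, with 34.6, 86.6 and 454 CPM against 7.64, 16.01 and 24.5 CPM (2.73 ± 0.33, adjusted p = 1.10e-06). Of the 9 members tested 4 were higher and 4 lower in EVs, and without the 20 most counted genes of all libraries, Malat1 among them, the class difference was -0.27 with an adjusted p of 0.443. Across all 12097 genes RefSeq names lncRNAs the EV share was larger in 6 of 6 cultures, with 10.4% to 19.7% of counts in EVs against 2.69% to 13.6% in cells. The means were 13.78% and 7.88%, and 3 loci held most of the EV share. Gm36876, AY036118 and Gm39850 took means of 5.00%, 2.26% and 4.23% of EV counts and 2.57%, 2.60% and 0.0932% of cell counts. The class share without these 3 loci was not taken, so the larger share is not read as a trait of lncRNAs at large. Of the 4101 lncRNA genes tested 2194 (53.5%) were higher and 257 (6.27%) lower, against 31.7% and 33.9% of all genes. A gene low in cells could pass the count filter through the EV libraries alone, so these counts are a description and not a property of lncRNAs.

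The counts of miRNA genes are of the annotated precursor loci and do not tell mature miRNAs from precursors. Precursors took 0.00578% to 0.0566% of EV counts and 0.00598% to 0.0137% of cell counts, a difference in 5 of 6 cultures that did not pass (exact p = 0.219, adjusted p = 0.259). Of 26 tested precursors 5 were higher in EVs, 10 lower and 11 not called. The most counted precursor was Mir6240, with 22.95, 83.7 and 645 CPM in EVs against 2.70, 18.5 and 42.6 CPM in cells (2.88 ± 0.69, adjusted p = 0.00128), of which culture 5M had the highest EV value. Mature sequences of RefSeq were found for 24 of the 26 precursors. Mir7652 had the largest rise among precursors called and higher in 6 of 6 cultures. Without that condition Mir8102 had a larger log2 fold change (3.87, adjusted p = 0.00115, edgeR). Sequences of Mir7652 and of the 3 pairs that share a seed with both precursors called lower by edgeR are printed with the seed (bases 2 to 8) in capitals.
miR-7652-3p: uCUGGCUUuccuguggcuucu
miR-17-5p: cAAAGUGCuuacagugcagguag
miR-20a-5p: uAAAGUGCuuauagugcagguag
miR-29a-3p: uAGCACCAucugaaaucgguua
miR-29b-3p: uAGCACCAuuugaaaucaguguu
let-7c-5p: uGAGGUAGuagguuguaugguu
let-7i-5p: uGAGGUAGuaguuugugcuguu

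Mir7652 lay at 2.67, 8.97 and 21.9 CPM in EVs and at 0.442, 0.635 and 0.798 CPM in cells, with no overlap (3.78 ± 0.35, adjusted p = 4.41e-08). The seed AAAGUGC is shared by products of Mir17 (-1.38 ± 0.51, adjusted p = 0.0239) and Mir20a (-1.21 ± 0.51, adjusted p = 0.0421), neighbors in the Mir17-92 cluster that promotes progenitor growth. Their host transcript Mir17hg fell further, from 3.66, 8.34 and 17.8 CPM in cells to 0, 0.131 and 1.15 CPM in EVs (-4.97 ± 0.50, adjusted p = 1.15e-07). The let-7 family with seed GAGGUAG, which restrains progenitor growth, was lower at Mirlet7i (-1.31 ± 0.40, adjusted p = 0.00792) and was called lower at Mirlet7c-1 (adjusted p = 0.00521), which had counts in 1 EV library only, at 0.382 CPM, against 0.2455 to 0.894 CPM in cells, and the AGCACCA family at Mir29a (-1.88 ± 0.47, adjusted p = 0.00175). Mir29b-1 had 0 counts in all EV libraries and a median of 0.624 CPM in cells, which is below the floor of 3 counts per EV library (mean 1.38 CPM), and its call in edgeR (adjusted p = 0.00141) was lost with DESeq2 (adjusted p = 0.0903), so it is not read as lower. The 6 precursors of these families lay at 0 to 3.93 CPM in EVs, a few counts per library, and apart from Mir6240, Mir7652 and Mir29b-1 the single precursors and Mir17hg were chosen after their values were seen. Of 9 tested miRNA host genes 6 were lower and 1 higher.

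The genes with the most counts in EVs were mt-Rnr2, Cdk8, LOC118568312, Gm36876 and Gm39850. Cdk8, a kinase of the Mediator complex, lay at 65010, 82160 and 165000 CPM in EVs and at 4096, 9201 and 26290 CPM in cells (3.24 ± 0.87, adjusted p = 0.00299, no overlap). The long noncoding Gm39850 lay at 16640, 43200 and 85870 CPM in EVs and at 285, 811 and 1370 CPM in cells (5.80 ± 0.86, adjusted p = 1.04e-05, no overlap). LOC118568312, with no RefSeq entry by symbol, lay at 29460, 59000 and 190100 CPM in EVs and at 3720, 7544 and 20800 CPM in cells (2.90 ± 0.87, adjusted p = 0.00694). Gm36876 and AY036118, which are among the most counted genes in cells too, overlapped between EVs and cells and were not called (adjusted p = 0.0872 and 0.767), and Gm36876 passed with DESeq2, without the culture block and without culture 4F (adjusted p = 7.01e-08, 0.026 and 0.0397). What the reads at these loci are was not tested.

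Among genes higher in 6 of 6 cultures with at least 10 counts in every EV library, the 5 with the largest rise were Abi3, LOC118567621, LOC118568032, 9030624G23Rik and Gm35338, with log2 fold changes from 7.88 to 9.24. Abi3, an actin regulator known from microglia (GRCm39, chr11:95720900-95733302), lay at 10.98, 29.0 and 195 CPM in EVs and at 0.0421, 0.0532 and 0.133 CPM in cells (9.24 ± 0.50, adjusted p = 2.27e-10, no overlap). Microglia genes as a list were near 0 in both, with summed levels of 2.62 to 11.8 CPM in EVs. The uncharacterized 9030624G23Rik (chr12:24062271-24147332) lay at 27.1, 66.8 and 138 CPM in EVs and at 0.113, 0.159 and 0.378 CPM in cells (8.25 ± 0.34, adjusted p = 6.75e-12, no overlap).

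**Figure D3:**
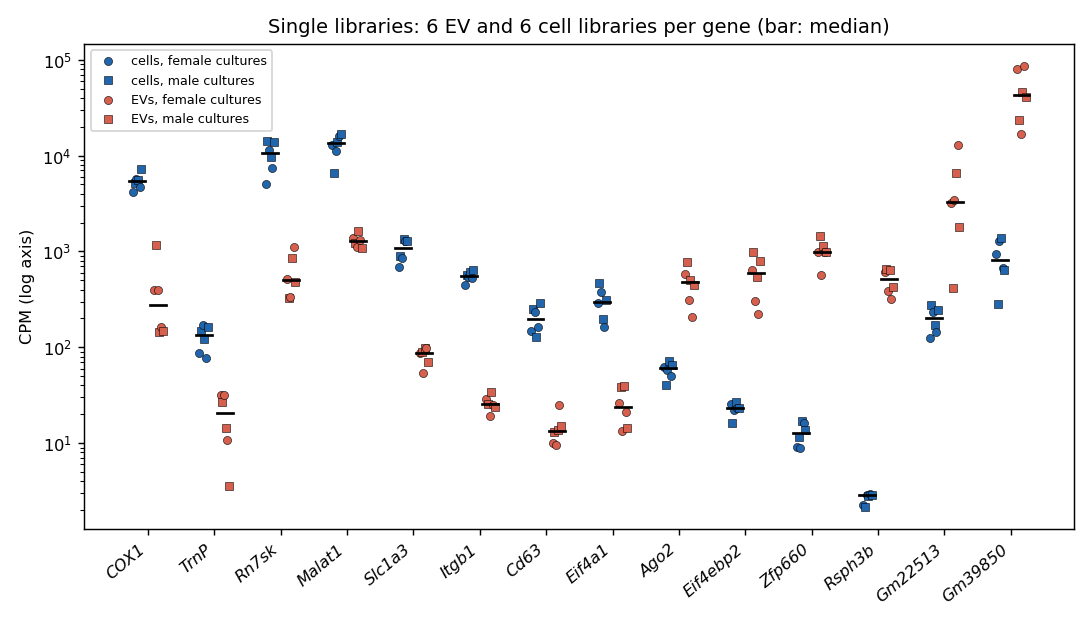
CPM on a log axis in each of 6 cell libraries (blue) and 6 EV libraries (red) for 14 genes, with circles for female and squares for male cultures and a black bar for the median. The first 8 genes are lower in every EV library than in every cell library and the last 6 are higher in every EV library.

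Genes of protein synthesis were mostly lower in EVs, and the ribosomal proteins of the cytoplasm least so. The lists here and below are set against all tested genes and not against genes of like level. Genes of high level were mostly lower whatever their function. In the 2 highest quintiles of level in cells at 120 mg/dL, described below, 57.9% and 69.9% were lower, with median log2 fold changes of -0.84 and -1.29. How far level accounts for the fall of a list was not tested. Of 84 cytosolic ribosomal protein genes 41 (48.8%) were lower and 5 higher, whose median lay at -0.64 from that of all genes, and the summed level overlapped, with 6346 to 19130 CPM in EVs and 9242 to 16740 CPM in cells. Rpl4, the most abundant, was not called (0.44 ± 0.35, adjusted p = 0.276) but passed with DESeq2 at 0.85 (adjusted p = 0.000103) and without the culture block (adjusted p = 0.0331). Rpl9 was higher in EVs, with 245, 514.5 and 863 CPM against 83.9, 134 and 196 CPM (1.85 ± 0.37, adjusted p = 0.000256), and Rpl23a lower, with 10.4, 32.1 and 44.3 CPM against 84.6, 122 and 167 CPM (-2.09 ± 0.32, adjusted p = 1.86e-05). Ribosomal protein genes have many processed copies in the genome, so reads shared with those copies are uncertain.

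Mitochondrial ribosomal proteins, coded in the nucleus, fell more evenly, with 60 of 77 (77.9%) lower and 1 higher and a median of -1.22. Mrps18c showed their largest fall, from 13.1, 17.0 and 21.1 CPM in cells to 0.562, 2.11 and 4.58 CPM in EVs (-2.79 ± 0.34, adjusted p = 1.15e-06). Of 54 translation initiation factor genes 39 (72.2%) were lower and 5 higher (median -1.54), and their extremes lay far apart. Eif4a1, the helicase that unwinds mRNA leaders, lay at 13.5, 23.7 and 39.0 CPM in EVs and at 162, 300.2 and 469 CPM in cells (-3.58 ± 0.35, adjusted p = 9.69e-08). Eif4ebp2, which binds eIF4E and represses translation in neurons, lay at 224, 596 and 979 CPM in EVs and at 16.3, 23.3 and 26.6 CPM in cells (4.51 ± 0.39, adjusted p = 2.51e-08). Of 20 cytosolic aminoacyl-tRNA synthetase genes, which charge tRNAs, 18 (90.0%) were lower, with Tars the lowest (-2.74 ± 0.27, adjusted p = 1.03e-07), and Wars alone higher (2.16 ± 0.33, adjusted p = 1.50e-05).

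Energy metabolism followed. Of 88 nuclear-coded oxidative phosphorylation genes 79 (89.8%) were lower and 1 higher, with a median of -1.57, against 33.9% lower among all genes. The exception, Atp5a1, the catalytic-side alpha subunit of ATP synthase, lay at 756, 1595 and 2189 CPM in EVs and at 247, 333 and 570 CPM in cells (2.04 ± 0.38, adjusted p = 0.000128, no overlap), while Atp5l, a small membrane subunit of the same enzyme, lay at 0.562, 1.55 and 2.36 CPM against 8.25, 12.6 and 14.6 CPM (-3.11 ± 0.36, adjusted p = 6.14e-07, no overlap). Of 18 glycolysis genes 15 (83.3%) were lower and 0 higher (median -1.49). Pfkp, a phosphofructokinase, lay at 7.08, 8.45 and 15.97 CPM against 42.6, 67.9 and 98.1 CPM (-2.86 ± 0.28, adjusted p = 1.01e-07), and Pkm, the most abundant, at 143, 296 and 434 CPM against 202, 299 and 535 CPM, was not called (-0.05 ± 0.32, adjusted p = 0.905). The 21 cholesterol synthesis genes were divided, with 10 lower and 6 higher. Msmo1, a sterol oxidase, lay at 4.498, 9.96 and 19.3 CPM in EVs and at 107, 192 and 416 CPM in cells (-4.28 ± 0.33, adjusted p = 6.95e-09), whereas Fdft1, squalene synthase, lay at 54.6, 150 and 313 CPM in EVs and at 20.6, 40.1 and 95.6 CPM in cells (1.72 ± 0.27, adjusted p = 1.90e-05, higher in 6 of 6 cultures).

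Genes of protein quality control and degradation fell as well. Of 38 proteasome subunit genes 33 (86.8%) were lower and 2 higher (median -1.85), with Psma3 at 3.94, 4.504 and 6.87 CPM in EVs against 37.9, 48.0 and 58.8 CPM in cells (-3.23 ± 0.27, adjusted p = 1.51e-08). Of 24 cytosolic chaperone genes 22 (91.7%) were lower and 0 higher (median -1.77), among them Hsp90ab1, the most abundant, at 173, 260 and 353 CPM against 343, 574 and 937 CPM (-1.21 ± 0.33, adjusted p = 0.00371). Of 21 lysosome genes 18 (85.7%) were lower and 0 higher (median -2.27), the lowest being Ctsb, a cathepsin, at 5.99, 9.92 and 11.5 CPM against 101, 161 and 239 CPM (-4.11 ± 0.29, adjusted p = 2.86e-09).

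Of 75 mRNA splicing protein genes 65 (86.7%) were lower and 4 higher, with a median of -1.89. Srsf5, an SR protein, lay at 10.7, 14.1 and 24.8 CPM in EVs and at 123.1, 179 and 242 CPM in cells (-3.64 ± 0.30, adjusted p = 1.26e-08). Hnrnpa0 was the most abundant member and among those higher, at 34.9, 1354 and 4367 CPM in EVs against 91.4, 153 and 241 CPM in cells (2.78 ± 0.76, adjusted p = 0.00366), and its EV libraries spread on both sides of the cells. Of 25 nuclear pore genes 17 were lower and 2 higher (median -1.23), and Rae1, an mRNA export factor at the pore, was higher at 132, 434 and 2427 CPM against 24.6, 34.3 and 47.3 CPM (3.89 ± 0.54, adjusted p = 4.88e-06). Of 24 importins and exportins 15 were lower and 4 higher (median -1.28), and 2 importin alpha genes went opposite ways, Kpna2 at -2.81 ± 0.29 (adjusted p = 1.49e-07) and Kpna6 at 1.81 ± 0.30 (adjusted p = 4.13e-05).

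Of 35 S-phase and DNA replication genes 17 (48.6%) were lower and 2 higher (median -0.73), with Pcna, the sliding clamp of DNA polymerase, at 4.20, 8.59 and 15.4 CPM in EVs against 24.5, 56.8 and 149 CPM in cells (-2.67 ± 0.27, adjusted p = 1.30e-07). Of 30 G2 and mitosis genes 23 (76.7%) were lower and 1 higher (median -0.97), with Top2a, the topoisomerase of dividing cells, at 26.4, 47.3 and 59.9 CPM against 190, 218 and 567 CPM (-2.58 ± 0.30, adjusted p = 7.15e-07). Replication-dependent histone mRNAs, which lack poly(A) tails, were mostly not called (47 of 54, with 1 higher and 6 lower), and their share of counts was lower in 4 of 6 cultures (exact p = 0.344). Immediate early genes, the first transcripts after a stimulus, were lower in 16 of 18 and higher in 0 (median -2.28), with Jun at 25.3, 38.2 and 59.9 CPM in EVs against 79.0, 264 and 499 CPM in cells (-2.60 ± 0.41, adjusted p = 1.93e-05).

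**Figure D4:**
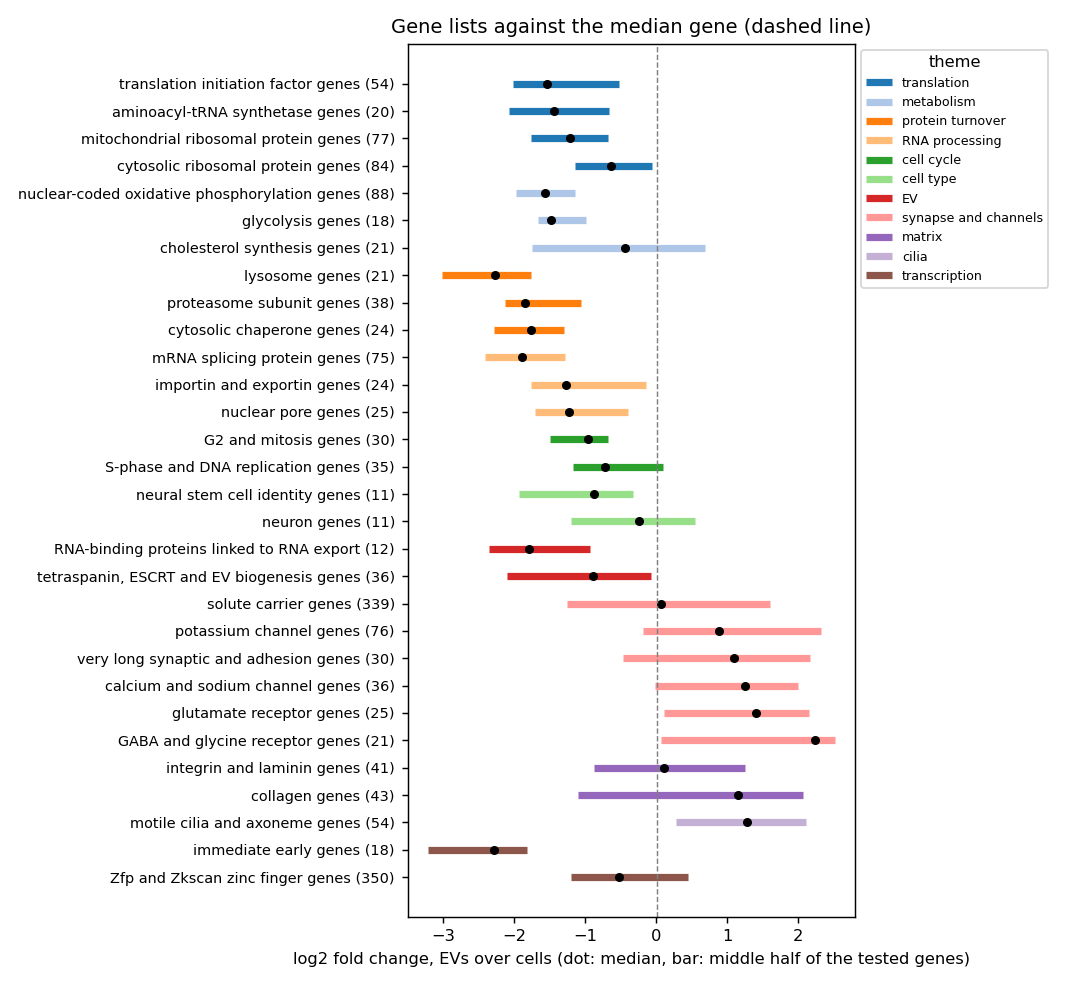
Median (dot) and interquartile range (bar) of log2 fold changes (EVs over cells) for the tested genes of 30 lists, with the number tested in brackets and the median of all tested genes as a dashed line. The lists of translation, metabolism, turnover and RNA processing lie left of the line and those of receptors, channels and cilia right of it.

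The transcripts that define NSCs and radial glia were present in EVs at lower levels than in cells, with a summed level of 602 to 1326 CPM against 3507 to 5291 CPM and no overlap. Of 11 tested 7 were lower and 1 higher. Slc1a3, the glial glutamate transporter GLAST, lay at 53.4, 87.6 and 97.5 CPM in EVs and at 682, 1088 and 1359 CPM in cells (-3.68 ± 0.36, adjusted p = 8.66e-08), and Vim, the intermediate filament vimentin, at 254, 402 and 645 CPM against 913, 1487 and 2746 CPM (-1.90 ± 0.37, adjusted p = 0.0002). The Notch effectors Hes1 and Hes5 went opposite ways, Hes1 at 2.25, 3.68 and 4.99 CPM in EVs against 13.3, 20.2 and 34.3 CPM in cells (-2.45 ± 0.29, adjusted p = 7.25e-07) and Hes5 at 25.3, 45.0 and 72.6 CPM against 5.93, 14.8 and 33.9 CPM (1.70 ± 0.25, adjusted p = 1.16e-05, higher in 6 of 6 cultures).

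Astrocyte genes, which radial glia share in part, were lower in 7 of 7 tested. Gja1, the gap junction protein connexin 43, lay at 4.99, 7.74 and 9.96 CPM in EVs against 51.3, 109 and 287 CPM in cells (-3.95 ± 0.30, adjusted p = 5.53e-09), and Apoe, a lipoprotein, at 32.9, 46.4 and 81.2 CPM against 83.1, 316 and 680 CPM (-2.57 ± 0.33, adjusted p = 2.22e-06). Of 11 neuron genes 4 (36.4%) were lower and 1 higher, a share lower that is near the 33.9% of all genes, and the summed level was 237 to 419 CPM in EVs against 645 to 1342 CPM in cells, most of it Map2, a dendrite microtubule protein (-1.98 ± 0.32, adjusted p = 2.74e-05). Of 8 oligodendrocyte lineage genes 4 were lower and 2 higher. The lists of 3 cell types not in the culture label were low in both locations and higher in EVs in 6 of 6 cultures: microglia genes summed to 2.62 to 11.8 CPM in EVs against 0.709 to 1.20 CPM in cells, endothelial genes to 7.86 to 76.6 CPM against 3.15 to 7.53 CPM, and mural and mesenchymal genes to 4.43 to 12.4 CPM against 2.01 to 4.96 CPM. The 8 erythroid genes, higher in EVs in 3 of 6 cultures, together stayed at 0 to 0.562 CPM in EVs and 0.0497 to 0.231 CPM in cells.

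The mRNAs of proteins that form EVs were not enriched in them. Of 36 tetraspanin, ESCRT and EV biogenesis genes 23 (63.9%) were lower and 4 higher, with a median of -0.90 and summed levels of 509 to 1082 CPM in EVs against 1484 to 2173 CPM in cells, with no overlap. Cd63, whose protein is a marker of exosomes, lay at 9.56, 13.4 and 24.8 CPM in EVs and at 128, 198 and 288 CPM in cells (-3.81 ± 0.32, adjusted p = 1.42e-08), and Tspan6, another tetraspanin, at 2.00, 3.39 and 4.91 CPM against 61.7, 72.1 and 84.5 CPM (-4.41 ± 0.27, adjusted p = 9.51e-10). Vps37b, an ESCRT-I subunit, was higher, at 89.4, 160 and 247 CPM against 20.2, 23.4 and 26.9 CPM (2.66 ± 0.28, adjusted p = 1.92e-07, no overlap). Of 12 RNA-binding proteins linked to RNA export 9 were lower and 2 higher (median -1.79). Hnrnpa2b1, known for sorting miRNAs into exosomes, lay at 60.9, 71.5 and 145 CPM in EVs against 378, 396 and 463 CPM in cells (-2.37 ± 0.30, adjusted p = 2.00e-06), and Ybx1 and Syncrip fell by 1.66 and 1.77 on the log2 scale (adjusted p = 7.86e-05 and 1.32e-05). Ago2, the slicer of the miRNA silencing complex, was higher in EVs, at 206, 477 and 770 CPM in EVs against 40.7, 60.2 and 72.0 CPM in cells (2.91 ± 0.34, adjusted p = 6.19e-07, no overlap).

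Genes of neuronal receptors and channels were called higher in EVs more than lower. Over all tested genes 31.7% were higher and 33.9% lower, and a gene low in cells could pass the count filter through the EV libraries alone, so the counts over tested receptor and channel genes are a description and are not read as a property of these families. Of 25 tested glutamate receptor genes 15 (60.0%) were higher and 4 lower (median 1.39), and the whole list of 26 summed to 1283 to 4725 CPM in EVs against 476 to 1270 CPM in cells with no overlap. The kainate receptor Grik4 lay at 25.9, 398 and 1970 CPM in EVs and at 6.03, 19.9 and 24.8 CPM in cells (4.38 ± 0.67, adjusted p = 1.47e-05), and the AMPA receptor subunit Gria2 went the other way, at 7.85, 20.6 and 49.2 CPM against 61.5, 142 and 308 CPM (-2.87 ± 0.29, adjusted p = 1.58e-07). Of 21 tested GABA and glycine receptor genes 14 were higher and 4 lower (median 2.23), yet over the whole list of 26 the EV sum exceeded the cell sum in only 2 of 6 cultures. Those were cultures 3F and 3M, with sums of 3864 and 3827 CPM, in which Gabbr2, a GABA-B receptor subunit, stood at 3737 and 3740 CPM. In the other 4 EV libraries Gabbr2 lay at 13.6 to 29.4 CPM, against 6.85 to 22.7 CPM in cells, and it was not called (2.34 ± 1.11, adjusted p = 0.0714), though it passed with DESeq2, without the culture block, without culture 4M and without culture 5M (adjusted p = 0.0297, 0.000883, 0.0167 and 0.00938).

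Of 92 potassium channel genes 76 were tested, and of these 36 (47.4%) were higher and 10 lower (median 0.88), led by Kcnk9, a leak channel, at 19.7, 35.4 and 90.8 CPM in EVs against 0.377, 1.15 and 3.33 CPM in cells (5.15 ± 0.34, adjusted p = 1.86e-09, no overlap). Of 36 calcium and sodium channel genes 19 (52.8%) were higher and 5 lower (median 1.24). The 339 solute carriers were evenly split, with 109 higher and 113 lower. Of 30 very long synaptic and adhesion genes 17 were higher and 7 lower (median 1.08), and their sum was 12420 to 18670 CPM in EVs against 1549 to 6482 CPM in cells. Il1rapl1, a synaptic adhesion receptor and one of the longest genes (chrX:85784476-87159281), carried most of it at 10020 to 17470 CPM in EVs against 594 to 3162 CPM in cells (2.66 ± 0.59, adjusted p = 0.000651), whereas Erbb4, a neuregulin receptor that is also very long (chr1:68071345-69147619), was lower at 28.1, 83.7 and 124 CPM against 43.2, 286 and 687 CPM (-1.86 ± 0.36, adjusted p = 0.000176).

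Lists of genes used in other tissues passed the count filter in part only, and through the location where they were high, so they are given mainly as sums over all their members. The 1105 olfactory receptor genes summed to 30.4 to 92.2 CPM in EVs and 6.14 to 11.2 CPM in cells, and the 391 vomeronasal and taste receptor genes to 43.9 to 145 CPM and 15.1 to 24.5 CPM, both without overlap and higher in 6 of 6 cultures. The 39 Hox genes, which pattern the trunk and are silent in the forebrain, summed to 25.7 to 72.5 CPM and 2.86 to 14.6 CPM. The sum of the 98 cytochrome P450 genes went the other way, with 65.1 to 130 CPM in EVs and 108 to 225 CPM in cells, lower in 6 of 6 cultures. Most of its tested members did not follow the sum. Of 53 tested, 30 (56.6%) were higher and 7 (13.2%) lower (median 2.23), against 31.7% and 33.9% of all genes, and the limit of the count filter holds for them. Counting or alignment of reads from elsewhere in the genome to these loci was not tested.

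Of 54 tested motile cilia and axoneme genes 32 (59.3%) were higher and 8 (14.8%) lower (median 1.27), against 31.7% and 33.9% of all genes. Counts of members in this paragraph are a description and are not read as a property of the families. The whole cilia list of 59 summed to 734 to 3700 CPM in EVs against 272 to 802 CPM in cells, higher in 6 of 6 cultures. The median sums were 2869 and 329 CPM, and 2 genes, Rsph3b and Cfap298, held much of the EV sum. The sum without these 2 genes was not taken, so it is not read as a trait of the whole list. Rsph3b, a radial spoke protein, lay at 320.5, 516.5 and 649 CPM in EVs and at 2.15, 2.86 and 2.99 CPM in cells (7.52 ± 0.39, adjusted p = 1.13e-10, no overlap), and Cfap298 at 4.87, 2042 and 2738 CPM against 39.7, 69.0 and 89.9 CPM (4.14 ± 0.91, adjusted p = 0.00063). Of 43 collagen genes 23 (53.5%) were higher and 12 (27.9%) lower, with Col2a1 of cartilage at 64.1, 486 and 982 CPM against 2.70, 10.85 and 17.3 CPM (5.28 ± 0.58, adjusted p = 3.16e-07). Of 41 integrin and laminin genes 13 (31.7%) were higher and 12 (29.3%) lower, near the 31.7% and 33.9% of all genes. Itgb1, the integrin subunit that anchors radial glia, was the largest fall among the latter, at 19.1, 25.4 and 34.3 CPM in EVs against 442, 559 and 638 CPM in cells (-4.42 ± 0.33, adjusted p = 5.34e-09, no overlap). Of 350 zinc finger genes of the Zfp and Zkscan families 71 were higher and 145 lower (median -0.53, which became 0.25 with libraries thinned to the smallest total), but their summed level was higher in EVs in 6 of 6 cultures, at 6246 to 13460 CPM against 6080 to 6962 CPM. The largest rise among them was that of Zfp660, at 572, 994 and 1440 CPM in EVs against 8.90, 12.7 and 17.0 CPM in cells (6.31 ± 0.40, adjusted p = 1.20e-09, no overlap).

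The EV-to-cell difference was also set against features of the genes. Level was taken from libraries outside the comparison, the 6 cell libraries of the same cultures at 120 mg/dL ethanol, since the level in the control cells is part of the fold change itself. Across 20571 genes the log2 fold change had a Spearman correlation of -0.659 with this level (-0.657 to -0.344 within single cultures), a description across genes, which are not independent replicates. The quintile of genes with the lowest level (median 0.150 CPM) had a median log2 fold change of 2.34, with 69.1% higher and 0.146% lower in EVs, and the highest quintile (median 73.9 CPM) a median of -1.29, with 8.92% higher and 69.9% lower. The EV libraries held a median of 1.5 counts per gene in the lowest quintile and 97 in the highest, and a gene low in cells passed the count filter only where EVs held it, so the contrast of the quintiles is in part fixed by depth and filter. Without a filter on low counts the correlation was -0.512 across 29922 genes.

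For 18428 tested genes with an annotation by symbol, the exonic percent of the gene span had a correlation of -0.29 with the log2 fold change (-0.39 to -0.105 within cultures), exonic length -0.228, GC percent 0.0872 and the whole span 0.109. These values depended on the genes taken. Among 10266 genes with an EV median count of at least 10 they were -0.145, -0.0289, 0.322 and 0.114 in the same order. Without a filter on low counts they were -0.22, -0.254, 0.0115 and 0.00853. Among the 18428 genes, those in the quintile with the smallest exonic part had a median log2 fold change of 1.37, and those in the quintile with the largest -0.61. By RefSeq type, the 15685 tested protein-coding genes had a median of -0.36, with 25.9% higher and 41.3% lower, and the 4101 tested lncRNA genes a median of 1.75. The limit set by the count filter holds for these medians too. The 1475 loci with no RefSeq entry by symbol took 2.83% to 13.9% of EV counts against 0.646% to 2.25% of cell counts, higher in 6 of 6 cultures. Nearly all of this was LOC118568312, with a mean of 6.51% of EV counts and 1.09% of cell counts, where all 1475 loci had means of 6.72% and 1.33%.

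**Figure D5:**
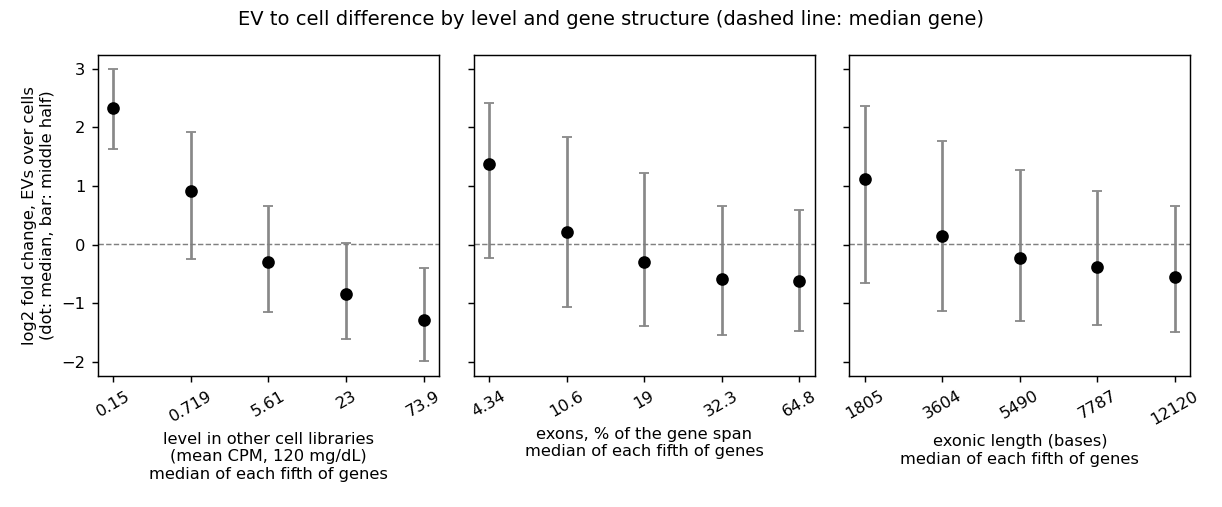
Median (dot) and interquartile range (bar) of log2 fold changes (EVs over cells) for genes in quintiles of level in other cell libraries, of exonic percent of the gene span and of exonic length, each quintile labelled by its median. The medians fall from 2.34 to -1.29 with level and from 1.37 to -0.61 with exonic percent, and the dashed line is the median tested gene.

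Few genes differed between female and male cultures in their EV-to-cell difference, which with 3 cultures a sex does not show that the sexes were alike. The interaction of location and sex passed in 3 of 20571 genes (0.0146%), with 1662 genes at an unadjusted p under 0.05, and the count ranged from 0 to 145 over the alternatives tried. Rbmxl2, an RNA-binding protein of the germ line, had 8720, 5159 and 5040 counts in female cells and 2, 8 and 2 in male cells of sets 3, 4 and 5, but 0 to 6 counts in every EV library, and the EV-to-cell log2 ratio was lower in females than in males by -10.77 (adjusted p = 5.21e-05). Asmt, the last enzyme of melatonin synthesis, had 3595, 1621 and 1888 counts in female cells against 45, 146 and 90 in male cells (difference -5.87, adjusted p = 0.000566). Amer3, a Wnt pathway regulator, had 25, 8 and 19 counts in female cells and 723, 1425 and 633 in male cells, with 220, 843 and 206 counts in female EVs and 451, 143 and 6 in male EVs (difference 8.71, adjusted p = 0.0181). Amer3 did not pass with median-of-ratios factors (adjusted p = 0.115) or without culture 3F or 4F (0.45 and 0.474). Asmt did not pass without culture 3F or 4F (0.12 and 0.0535). With thinned libraries or without pregnancy set 3 none of the 3 genes passed. These 3 genes were chosen because they passed the test, and in all of them the sexes stood apart in cells. In EVs the sexes overlapped for Rbmxl2 and Amer3. For Asmt the EV counts were 17 to 27 in females and 53 to 208 in males, but depth differed among these libraries. A count was worth 0.998 CPM in EVs of 3F (17 counts) and 0.262 CPM in EVs of 4M (53 counts), so after scaling the sexes overlapped. Mean EV levels of Asmt were 13.0 CPM in females and 30.6 CPM in males.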

How the data were processed

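Total RNA of EV pellets and of matched cell pellets was sequenced after ribosomal RNA depletion with a stranded kit. Per the study's methods, the authors trimmed and deduplicated reads, aligned them with STAR to mm39 and made raw counts per gene with HTSeq, and they deposited these counts as 1 table per sample, without normalization. The strand and feature settings of the counting are not given in the sources used here, so antisense and overlapping genes could not always be told apart. The members and the gene lists were chosen with earlier results of these data known, and name patterns of mitochondrial, tRNA and miRNA genes were adapted to the symbols in the files.

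For the 12 libraries, genes were filtered with edgeR 4.0.16 (R 4.3.3; minimum count 10, minimum total 15), given TMM factors and fitted by quasi-likelihood, with the culture as a block and location (EV or cell) as the term. The filter turns the minimum count into a CPM cutoff at the median library total and does not ask for it in every library. A gene could therefore be tested with only a few counts in shallow EV libraries. Cultures are pairs by design, since the EV and cell libraries of a number come from the same flasks, and the deviations of paired libraries from their group means correlated at 0.00815 to 0.199. The block is the culture, so p-values measure the spread over 6 cultures from 3 pregnancies. Calls used an adjusted p (Benjamini-Hochberg) of 0.05, and calls beyond 2-fold a test against a log2 fold change of 1. CPM are counts relative to the TMM-scaled total. RNA class shares were tested by an exact two-sided sign-flip test over 6 cultures, adjusted over the 13 classes. Totals of 1.12 M to 5.47 M counts in EVs and 32.6 M to 45.4 M in cells set the precision, and folds against EV libraries at 0 are lower bounds at 3 counts per library, which cover counting error only.

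Genes were named by rule: the 5 largest changes in each direction among called genes with one direction in 6 of 6 cultures and at least 10 counts in every library of the higher location, the most abundant member and the largest rise and fall of each list, members of lists of at most 12 genes, the 5 most counted genes of each location and the Y-linked genes. Some genes that this rule names are not reported here. Symbols were matched to RefSeq types (96.3% of 40205 features) and to GENCODE on GRCm39 (79.0%). Alternatives were DESeq2 1.42.0, median-of-ratios factors, library totals, other filters, libraries thinned to the smallest total, all 36 libraries in the fit, no block, and each culture and pregnancy set left out. The tests were tried on simulated data with known changes.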

Additional observations from a re-analysis of the deposited data

Results flagged for a closer look

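In groups of 6 libraries, a highest or lowest value far from the other 5 was looked for among the summed levels of the gene lists, the named genes, the totals and the share of the 20 most counted genes. It was found in 33 of 316 groups, 31 of them at the high end. The cutoff gives about 1 in 20 groups for independent values of a normal distribution. Here most values were CPM without a logarithm, and sums shared genes with the named genes, so that rate does not apply. Whether 33 groups exceed chance was not tested. The EV library of culture 5F and the cell library of culture 3M had 8 such values each and the EV library of culture 3M had 6.

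The cell library of culture 3M stood high in proliferation, metabolism and stem cell genes, with summed levels of 2896 CPM for G2 and mitosis genes, 2831 CPM for glycolysis genes, 2267 CPM for mitochondrial ribosomal protein genes and 5291 CPM for neural stem cell identity genes. It also had the highest Top2a (566.9 CPM), Kpna2 (89.02 CPM) and Pkm (535 CPM), and the lowest sum of very long synaptic and adhesion genes (1549 CPM against 4714 to 6482 CPM in the other cell libraries). The EV library of the same culture held the most mitochondrial mRNA and tRNA, with 2552 CPM of mitochondrial mRNAs, 1158 CPM of COX1, 346.3 CPM of ND1 and 12.11 CPM of TrnI. Its mitochondrial ribosomal RNAs, at 89440 CPM, lay within the range of the other EV libraries (55570 CPM in 4F to 171100 CPM in 4M). This EV library also stood high in Il1rapl1 (17470 CPM) and LOC118567621 (50.73 CPM).

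The EV library of culture 5F, in which the 20 most counted genes took the largest share, had the highest LOC118568312 (190100 CPM), Rnu12 (335 CPM), Hnrnpa2b1 (145 CPM), Srsf5 (24.8 CPM), Cd63 (24.8 CPM) and Tars (22.13 CPM), the highest sum of integrin and laminin genes (1302 CPM), and the only EV value of Mirlet7c-1 above 0 (0.3815 CPM). The EV library of culture 5M was high in Mir6240 (645.1 CPM), in the miRNA precursor sum that contains it (685.6 CPM) and in endothelial genes (76.57 CPM against 7.86 to 25.3 CPM in the other EV libraries). Single high values were Grik4 in EVs of 3F (1970 CPM), Map2 (327.5 CPM) and Mir20a (2.358 CPM) in EVs of 4M, Gja1 (286.8 CPM) and Neat1 (154 CPM) in cells of 5M, n-TNgtt8 (7.049 CPM) and the share of the 20 most counted genes (48.2%) in cells of 4F. Aminoacyl-tRNA synthetase genes were low in EVs of 4F (729.9 CPM against 1105 to 1329 CPM).

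The EV-to-cell difference of Rbmxl2, Asmt and Amer3 differed between female and male cultures by an interaction term, with log2 ratios in females minus males of -10.77, -5.866 and 8.706 (edgeR quasi-likelihood test).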

How the results depend on the processing

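With TMM in edgeR, 13503 genes were called and 8130 beyond 2-fold. Calls beyond 2-fold numbered 5210 with DESeq2, 5411 with location as the group in the filter, 2848 with libraries thinned to the smallest total, where 6417 genes were called in all, and 5383 (without pregnancy set 5) to 8032 (without culture 3M) when a culture or set was left out. Without the culture block 11894 genes were called, of which 11166 were among the 13503 and in the same direction. The share of calls higher in EVs was 62.78% with DESeq2, 59.41% with median-of-ratios factors, 40.52% with library totals and 44.1% to 48.74% with a culture or set left out. The median log2 fold change was 0.8268, 0.413 and -0.2484 in the same order, where DESeq2 changed the test and the genes tested as well as the scaling, and 0.2217 without a filter. Genes with a sex interaction numbered 50 with DESeq2, 5 with library totals, 145 without a filter, 0 when thinned and 0 (without pregnancy set 3) to 66 (without culture 4M) with a culture or set left out. Without the 20 most counted genes 0 classes passed, with log2 ratios of -3.83 to -1.07 in 6 of them at an adjusted p of 0.0625, the smallest where only 6 of 12 classes reach the smallest exact p. The class with 7SK fell to -0.81 and nuclear long noncoding RNAs to -0.27. The correlation with level was -0.512 without a filter. List medians relative to all genes were not recomputed with DESeq2, with all 36 libraries or without single cultures. In the other alternatives a sign reversed beyond the spread over cultures only when thinned, for neuron genes (0.5374), cytochrome P450 genes (-1.139) and Zfp and Zkscan genes (0.2497). Without a reversal, 28 lists moved by more than that spread when thinned and 19 did not. With location as the group in the filter 16 moved and 39 did not. Unless a value above shows it, the cause of these shifts was not tested. Among 202 named genes, 15 lost and 10 gained a call with DESeq2. Depth in EVs limits low genes, since 4162 of the genes called higher had a median under 10 counts there.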
